A study of Mus musculus with 7 samples.

Results

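Teneurins, latrophilins and FLRT proteins are cell surface proteins that bind one another across the gap between neighbouring neurons. The set described here holds 10 genes of the 43626 in the table: the 4 teneurin genes Tenm1 to Tenm4, the 3 latrophilin genes Adgrl1 to Adgrl3 and the 3 FLRT genes Flrt1 to Flrt3. They were found by matching each Ensembl identifier to its symbol in GENCODE M21, and all 10 were present and passed the filter on low values. The members were chosen by family around Tenm1, which was itself selected on its normalized counts in these libraries, as one of the genes with the smallest unadjusted p between the genotypes. Every genotype difference below is therefore a description, and none of them supports a change.

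The tissue was prefrontal cortex, taken at 8 weeks from male mice of the strain C57BL/6J, with 4 RNA libraries from hDISC1AA/+ and 3 from wild type (WT). By its title the study asks how phosphorylation of the scaffold protein DISC1 bears on the polarization of cortical neurons, and the labels do not say how the hDISC1AA allele was built. The labels do not say that each library came from a separate mouse, so every spread given here is a spread between libraries and may be technical. One hDISC1AA/+ column bears a number found in no sample title and is called the unnumbered library.

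Teneurins are large single-pass proteins with a long extracellular part that dimerizes and reaches across to the partner cell. Latrophilins are adhesion G protein-coupled receptors: they bind teneurins and FLRTs on the outside and signal through G proteins on the inside. FLRTs carry leucine-rich repeats, bind latrophilins, and also bind the netrin receptors of the UNC5 family, which can repel migrating neurons. In the rodent forebrain the 3 families are known for matching axons to their targets and for building excitatory synapses.

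The libraries held 33512557 to 36005116 reads assigned to genes in hDISC1AA/+ and 34572903 to 63845254 in WT, with WT replicate 1 the deepest. All values are the authors' normalized counts, which are reads divided by 1 size factor per library. Each of the 10 genes had at least 1104 reads in every library, so counting error was at most 3.01% of a value. The 8 excitatory and 8 inhibitory cortical neuron markers all had reads in every library; Slc17a7, the vesicular glutamate transporter of cortical neurons, lay between 55501.6 and 78477.8 normalized counts. On the first principal component WT replicate 1 (-70.4) lay apart from the other 6 libraries (-17.4 to 26.3), and on the second hDISC1AA/+ replicate 1 (66.4) lay apart from the rest (-27.3 to 0.309). The 9 oligodendrocyte markers summed to 40458.6 to 47252.8 normalized counts in hDISC1AA/+ and to 42678.5 to 140888 in WT, the highest being WT replicate 1. The 8 endothelial markers summed to 8156.87 to 9976 in hDISC1AA/+ and to 2451.09 to 10883.4 in WT, the lowest being WT replicate 1. No marker of either list was at 0 in any library.

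The promoters shown are those of the 2 pairs of genes whose levels ran most alike across the 7 libraries, Tenm4 with Adgrl1 and Flrt2 with Flrt3. Each is the stretch of 250 bases before the RefSeq start on GRCm38.p6, 5′ to 3′ on the gene's own strand. These RefSeq starts lie within 7 bases of the 5′ end of the GENCODE gene. Capitals mark matches on either strand to 1 of 5 motifs. These were the GC box GGGCGG, the TATA box TATAAA (in 12.4% of all RefSeq stretches of this length), the cyclic AMP response element TGACGTCA (1.55%), the E-box CACGTG and the NRF1 motif (0.782%). No 2 matches overlapped in the stretches shown.
Adgrl1, chr8:83899848-83900097, plus strand: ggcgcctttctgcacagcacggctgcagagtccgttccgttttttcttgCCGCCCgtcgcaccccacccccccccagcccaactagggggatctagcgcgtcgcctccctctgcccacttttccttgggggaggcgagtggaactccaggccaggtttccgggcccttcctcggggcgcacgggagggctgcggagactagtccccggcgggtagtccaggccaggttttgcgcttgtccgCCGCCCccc
Tenm4, chr7:96170994-96171243, plus strand: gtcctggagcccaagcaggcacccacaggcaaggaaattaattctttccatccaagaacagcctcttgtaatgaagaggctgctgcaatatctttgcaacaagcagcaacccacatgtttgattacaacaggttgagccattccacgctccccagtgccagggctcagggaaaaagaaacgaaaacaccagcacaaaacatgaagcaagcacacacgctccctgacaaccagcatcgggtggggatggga
Flrt2, chr12:95691976-95692225, plus strand: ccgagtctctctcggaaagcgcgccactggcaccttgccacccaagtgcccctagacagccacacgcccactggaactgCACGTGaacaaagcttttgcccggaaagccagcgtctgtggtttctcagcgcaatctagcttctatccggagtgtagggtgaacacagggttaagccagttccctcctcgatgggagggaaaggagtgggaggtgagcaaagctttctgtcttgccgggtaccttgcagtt
Flrt3, chr2:140671477-140671726, minus strand: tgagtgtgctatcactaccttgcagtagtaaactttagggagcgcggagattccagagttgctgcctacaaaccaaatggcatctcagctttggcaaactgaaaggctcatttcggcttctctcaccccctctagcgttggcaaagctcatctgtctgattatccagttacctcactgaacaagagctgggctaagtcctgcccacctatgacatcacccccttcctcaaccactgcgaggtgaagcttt

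The Adgrl1 stretch was the richest in CpG of the 4. It held 21 CpG dinucleotides at a GC content of 68.8% and 2 matches to GGGCGG, which 32.7% of all 32851 RefSeq stretches hold. Flrt2 held 12 CpG dinucleotides and 1 match to CACGTG, found in 6.02% of all stretches. Flrt3 held 5 CpG dinucleotides and Tenm4 held 4, where the median stretch holds 6, and neither held a match. RefSeq stretches were found for 9 of the 10 genes. Those of Tenm1, Tenm2, Tenm3 and Adgrl2 belong to starts 154342, 291723, 169261 and 35920 bases inside the GENCODE gene and are not shown. Tenm4 had another RefSeq stretch, also not shown, at a start 40425 bases inside the gene. That stretch held 8 CpG dinucleotides and no match.

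Levels between genes were compared per length, as normalized counts per kilobase of merged exons (normalized counts per kb). Adgrl1 stood far above the other 9 genes in every library. It measured 2831, 2238, 2310 and 2208 normalized counts per kb in hDISC1AA/+ replicate 1, the unnumbered library and replicates 3 and 4, against 2460, 2346 and 2506 in WT replicates 1 to 3. The mean over 7 libraries was 2414 ± 214 (SD), 4.69 times that of the next gene, and higher than the level of 96.0% of all genes tested.

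Behind Adgrl1 the order ran Flrt2, Adgrl2, Tenm3, Flrt3, Tenm2, Tenm4, Flrt1, Adgrl3 and Tenm1. Flrt2 averaged 515 ± 80.3 normalized counts per kb and Adgrl2 391 ± 65.9 (SD, n = 7 libraries). Tenm3 averaged 318 ± 158, Flrt3 295 ± 31.4, Tenm2 277 ± 49.9955, Tenm4 266 ± 16.9 and Flrt1 247 ± 21.6. From Flrt2 down to Tenm1 the ranges of every 2 neighbours overlapped, so neighbours in this order were not separated by their spread. Adgrl3 (198 ± 33.1) lay above Tenm1 (102 ± 24.3) in all 7 libraries although their ranges overlapped, from 143 to 242 for Adgrl3 and from 74.98 to 144 for Tenm1. Per kilobase of the longest transcript instead, Adgrl1 had 2534 and the next gene, Adgrl2, 916, so the distance between rank 1 and rank 2 was smaller. On that scale Adgrl3 had rank 4 at 516, Tenm4 rank 5 at 425 and Tenm1 rank 10 at 141.

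**Figure D1:**
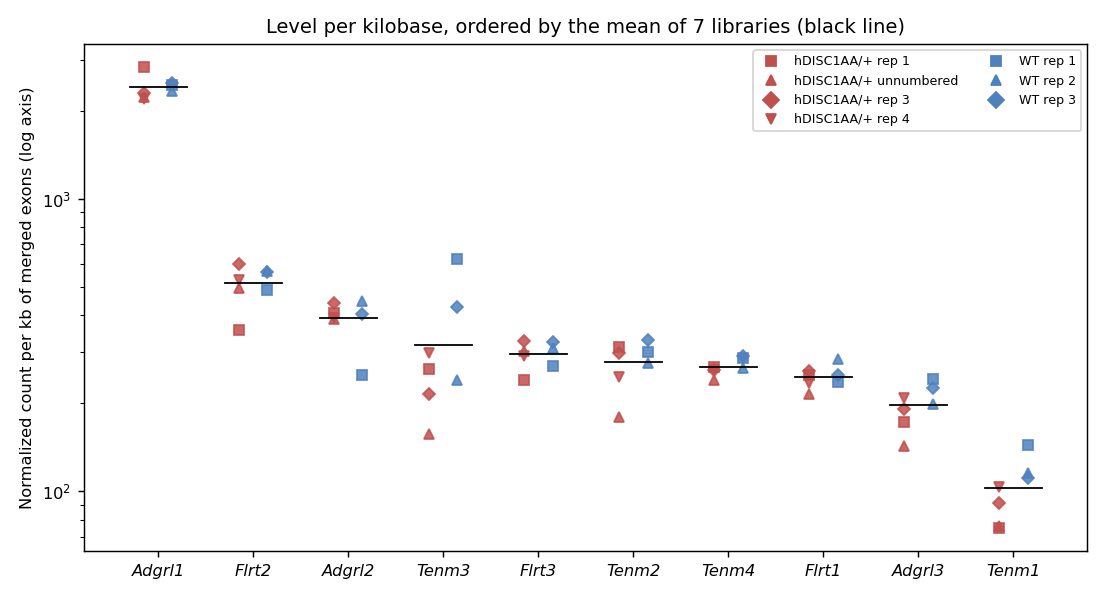
Level of each gene in normalized counts per kilobase of merged exons (log axis), with 1 point per library (red, hDISC1AA/+; blue, WT) and a black line at the mean of 7 libraries. Adgrl1 sits at 2208 to 2831, above all points of the other 9 genes, and Tenm1 is lowest at 74.98 to 144.

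Tenm1 is an X-linked teneurin (ENSMUSG00000016150, chromosome X, 42527866 to 43429126 of GRCm38, minus strand) in a gene of 901 kb. It had 1331, 1347, 1619 and 1842 normalized counts in hDISC1AA/+ replicate 1, the unnumbered library and replicates 3 and 4, against 2556, 2047 and 1970 in WT replicates 1 to 3. All 4 hDISC1AA/+ libraries lay below all 3 WT libraries. The means were 1535 ± 244 in hDISC1AA/+ and 2191 ± 318 in WT (SD), a log2 fold change of -0.52 (95% CI -0.85 to -0.18). In bulk tissue fewer cells of a type and less RNA per cell cannot be told apart. Without WT replicate 1 the log2 fold change was -0.40, and without both WT replicate 1 and hDISC1AA/+ replicate 1 it was -0.34. Exons of Sh2d1a, a signalling adaptor gene of lymphocytes, overlap those of Tenm1 by 1465 bases on the other strand. Sh2d1a had at most 3.09 normalized counts in any library. The sources used here do not state that the counting used strand, so this does not show how reads in that stretch were counted.

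Tenm2 is the teneurin known as Lasso, the high-affinity ligand through which latrophilin 1 was first tied to this family (ENSMUSG00000049336, chromosome 11, 36006656 to 37235964, minus strand). Its gene is the longest of the 10, at 1229 kb. It had 3574, 2068, 3408 and 2834 normalized counts in hDISC1AA/+, in the library order given for Tenm1, against 3426, 3166 and 3772 in WT. The unnumbered hDISC1AA/+ library was the lowest, hDISC1AA/+ replicate 4 also lay below all WT libraries, and hDISC1AA/+ replicates 1 and 3 lay inside the WT range. The log2 fold change was -0.25 (95% CI -0.66 to 0.17), and it was -0.08 without the unnumbered library.

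Tenm3 guides topographic wiring in the rodent visual system and hippocampus (ENSMUSG00000031561, chromosome 8, 48227682 to 48843951, minus strand). It was the most variable of the 10 genes, with a 3.95-fold range over the 7 libraries. It had 2678, 1613, 2199 and 3052 normalized counts in hDISC1AA/+ and 6365, 2459 and 4388 in WT. WT replicate 1 was the highest and the unnumbered hDISC1AA/+ library the lowest, while WT replicate 2 fell inside the hDISC1AA/+ range, so the groups overlapped. The standard deviation of its log2 values over 7 libraries was 0.66, above that of 91.0% of genes tested, and Poisson counting error at its lowest count was 2.54%. The means were 2386 ± 622 in hDISC1AA/+ and 4404 ± 1953 in WT (SD; log2 fold change -0.82, 95% CI -1.58 to -0.06). The log2 fold change was -0.50 without WT replicate 1 and -1.19 without WT replicate 2. In WT replicate 1, where Tenm3 stood 1.29 above the mean log2 value of the other 6 libraries, the mean deviation was 1.49 for the oligodendrocyte markers and -1.78 for the endothelial markers. It was 0.58 for the astrocyte, 0.48 for the microglia and -0.88 for the meningeal markers. Tenm1 was also highest there, at 0.61, and in hDISC1AA/+ replicate 1 it stood at -0.48. Mean deviations in that hDISC1AA/+ library were -0.50 for astrocyte, -0.42 for deep-layer, -0.29 for inhibitory neuron and -0.25 for oligodendrocyte markers. They were -0.23 for upper-layer and -0.15 for microglia markers, but 0.19 for excitatory neuron, 0.20 for endothelial and 0.35 for meningeal markers. The deep-layer and inhibitory lists were mixed in that library. Fezf2, Pvalb and Lhx6 had their highest values of the 7 libraries there, and Syt6, Foxp2 and Gad1 their lowest. In the unnumbered library Tenm1 stood at -0.46. Mean deviations there were -0.23 for excitatory neuron, -0.22 for oligodendrocyte, -0.17 for striatal and -0.15 for microglia markers. They were -0.14 for meningeal, -0.12 for astrocyte and -0.04 for hippocampal markers. Above 0 were upper-layer (0.04), inhibitory neuron (0.13), deep-layer (0.24) and endothelial markers (0.26). The 8 astrocyte markers, none at 0 in any library, summed to 128013 to 167498 normalized counts in hDISC1AA/+ and to 156860 to 230430 in WT. All 8 had a log2 fold change below 0 (median -0.25), against 52.2% of all genes tested. So did 9 of 9 oligodendrocyte (median -0.60), 6 of 7 microglia (-0.22), 7 of 8 striatal (-0.04) and 7 of 9 deep-layer markers (-0.10). It was 5 of 8 for excitatory, 4 of 8 for inhibitory and for upper-layer, and 3 of 6 for hippocampal markers. It was 1 of 7 for meningeal (0.34) and 0 of 8 for endothelial markers (0.50). Outside WT replicate 1, oligodendrocyte deviations were -0.32 and 0.01 in WT and -0.45 to -0.22 in hDISC1AA/+. Endothelial deviations were 0.21 and 0.53 in WT and 0.12 to 0.46 in hDISC1AA/+. The part of these cell types in the values was not tested.

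Tenm4 has roles in the differentiation of oligodendrocytes in the mouse (ENSMUSG00000048078, chromosome 7, 96171246 to 96911093, plus strand). It was the steadiest of the set. It had 5595, 5038, 5455 and 5477 normalized counts in hDISC1AA/+ and 5989, 5548 and 6096 in WT. Of the hDISC1AA/+ values 3 libraries lay below all WT libraries and 1 lay inside the WT range. The highest library was 1.21 times the lowest, and 6.33% of genes tested had a smaller standard deviation. Between genotypes the log2 fold change was -0.12 (95% CI -0.32 to 0.07).

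Over the 7 libraries the share of the teneurin sum per kb varied most for Tenm3 (SD 7.88 points), ahead of Tenm4 (4.78), Tenm2 (4.30) and Tenm1 (1.51). Within hDISC1AA/+ alone Tenm2 (SD 3.98), Tenm3 (3.97) and Tenm4 (3.75) varied alike. The share of Tenm3 was 28.6%, 24.1%, 24.9% and 32.8% in hDISC1AA/+ and 46.1%, 26.8% and 37.0% in WT. Tenm1 kept a small share, from 8.20% to 11.6% in hDISC1AA/+ and from 9.58% to 12.9% in WT. The shares of Tenm1 overlapped between the genotypes although its normalized counts did not. The teneurin sum was 914, 653, 863 and 910 normalized counts per kb in hDISC1AA/+, against 1349, 895 and 1158 in WT, and the ranges overlapped.

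**Figure D2:**
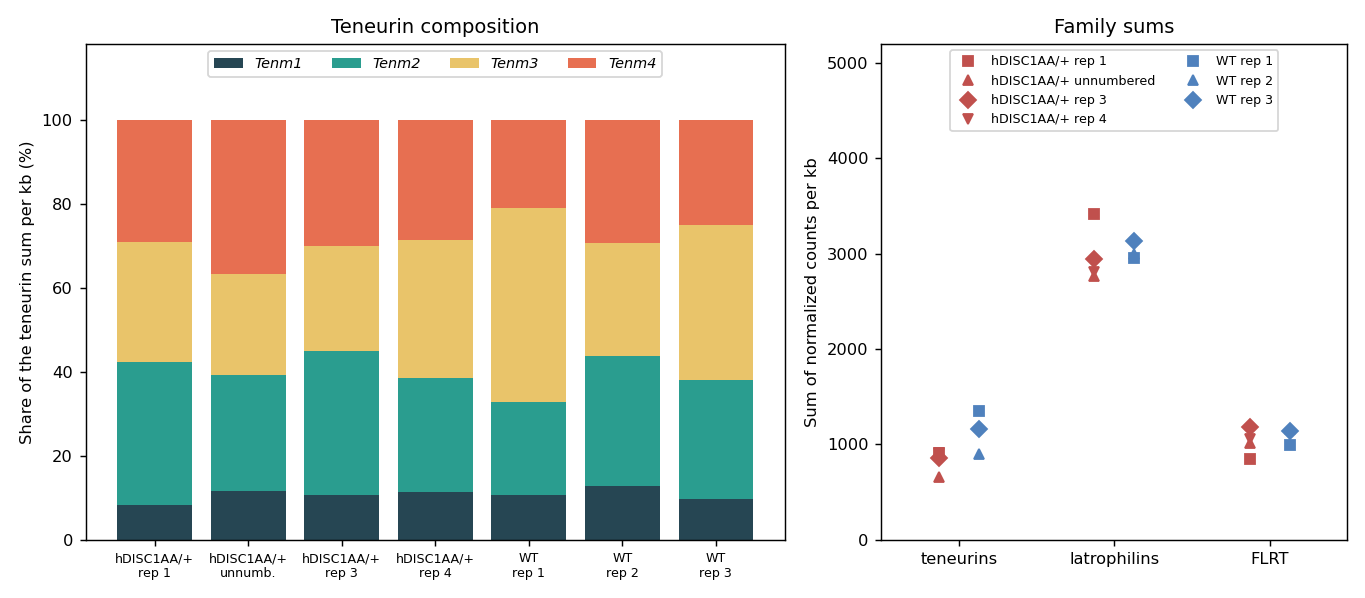
Left, share of each teneurin in the teneurin sum per kilobase (%), 1 bar per library; right, the sum of normalized counts per kilobase of each family, 1 point per library (red, hDISC1AA/+; blue, WT). Tenm3 makes up 46.1% of the bar of WT replicate 1 and 24.1% to 37.0% of the others.

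Adgrl1 encodes latrophilin 1, the receptor for alpha-latrotoxin of black widow venom (ENSMUSG00000013033, chromosome 8, 83900105 to 83941954, plus strand). It had 24312, 19219, 19834 and 18958 normalized counts in hDISC1AA/+ and 21120, 20145 and 21517 in WT. In hDISC1AA/+ replicate 1 it was higher than in any other library, and the other 3 hDISC1AA/+ libraries lay below all WT libraries. Its log2 fold change was -0.03 (95% CI -0.27 to 0.21). Adgrl1 made up 78.5% to 83.0% of the latrophilin sum per kb in hDISC1AA/+ and 78.4% to 83.3% in WT. Per kilobase of the longest transcript its mean share was 63.8%.

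Adgrl2 encodes latrophilin 2, a postsynaptic receptor for teneurins and FLRTs in rodent hippocampal neurons (ENSMUSG00000028184, chromosome 3, 148815583 to 148990555, minus strand). It had 5797, 5525, 6265 and 5570 normalized counts in hDISC1AA/+ and 3559, 6376 and 5734 in WT. WT replicate 1 was the lowest library and the other 6 lay within 5525 to 6376. Adgrl2 was the 1 gene of the set with a positive log2 fold change, 0.19 (95% CI -0.22 to 0.60), and without WT replicate 1 it was -0.06. In WT replicate 1 its deviation from the mean log2 value of the other 6 libraries was -0.72. The mean deviation there was -1.78 for the endothelial, -0.88 for the meningeal and -0.31 for the upper-layer neuron markers. The other marker lists lay above 0, from 0.00385 for excitatory neurons to 1.49 for oligodendrocytes. Adgrl4, the latrophilin relative of endothelial cells, had 168 normalized counts there and 411 to 938 in the other 6 libraries. The part of RNA of endothelial or other cell types in the Adgrl2 value was not tested.

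Adgrl3 encodes latrophilin 3, which binds FLRT3 and UNC5D as well as teneurins (ENSMUSG00000037605, chromosome 5, 81020138 to 81825133, plus strand). It had 3064, 2538, 3395 and 3708 normalized counts in hDISC1AA/+ and 4301, 3528 and 4008 in WT. Of the hDISC1AA/+ libraries 3 lay below all WT libraries, and hDISC1AA/+ replicate 4 lay above WT replicate 2. The means were 3176 ± 500 in hDISC1AA/+ and 3946 ± 390 in WT (SD; log2 fold change -0.32, 95% CI -0.64 to -0.01). An antisense gene, Gm16054, overlaps 1582 bases of its exons and had at most 153 normalized counts. The sources used here do not state that the counting used strand, so reads in that stretch cannot be told apart.

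**Figure D3:**
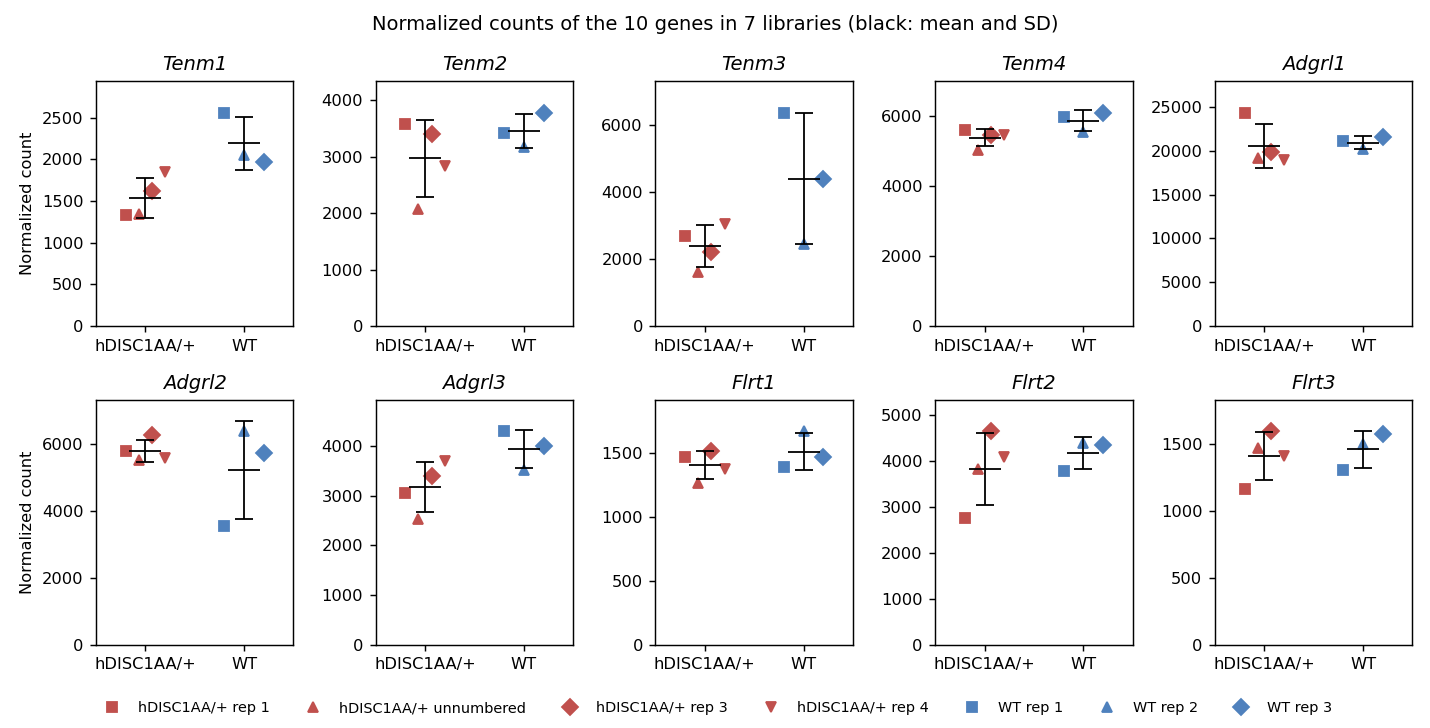
Normalized counts of the 10 genes, with 1 point per library (hDISC1AA/+ left, WT right) and black bars for the mean and SD of each group. The points of the groups do not overlap for Tenm1 and overlap for the other 9 genes, and Tenm3 spreads from 1613 to 6365.

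Flrt1 is the FLRT gene with the smallest span, 13.7 kb (ENSMUSG00000047787, chromosome 19, 7092001 to 7105729, minus strand), and overlaps Macrod1 on the other strand with no shared exon base. It had 1468, 1261, 1513 and 1374 normalized counts in hDISC1AA/+ and 1388, 1665 and 1467 in WT, with overlapping groups. Its log2 fold change was -0.10 (95% CI -0.35 to 0.15).

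Flrt2 repels UNC5D-bearing neurons in the developing mouse cortex (ENSMUSG00000047414, chromosome 12, 95692226 to 95785215, plus strand). It had 2762, 3818, 4638 and 4085 normalized counts in hDISC1AA/+ and 3780, 4393 and 4353 in WT. The lowest and the highest library were both hDISC1AA/+. The log2 fold change was -0.15 (95% CI -0.52 to 0.23), and it was 0.000426 without hDISC1AA/+ replicate 1, which was the lowest.

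Flrt3 is a ligand of latrophilins at glutamatergic synapses (ENSMUSG00000051379, chromosome 2, 140650914 to 140671469, minus strand) and overlaps Macrod2 on the other strand, again with no shared exon base. It had 1168, 1470, 1596 and 1416 normalized counts in hDISC1AA/+ and 1304, 1502 and 1577 in WT. As with Flrt2, hDISC1AA/+ replicate 1 was the lowest and replicate 3 the highest of the 7 libraries. The log2 fold change was -0.05 (95% CI -0.35 to 0.24), and its sign turned without hDISC1AA/+ replicate 1 (0.03), without WT replicate 3 (0.00389) and after correction for GC content and length (0.03).

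Flrt2 took a near-constant share of the FLRT sum per kb outside hDISC1AA/+ replicate 1. It was 42.2% in that library, 48.9%, 50.6% and 50.2% in the other 3 of hDISC1AA/+ and 49.2%, 49.0% and 49.6% in WT. Flrt3 took 27.6% to 29.9% in hDISC1AA/+ and 26.6% to 28.5% in WT. The latrophilin sum exceeded the teneurin sum in all 7 libraries. The ratio was 3.73, 4.24, 3.41 and 3.09 in hDISC1AA/+ and 2.19, 3.34 and 2.71 in WT. The FLRT sum was 848 to 1186 normalized counts per kb in hDISC1AA/+ and 994 to 1161 in WT.

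In hDISC1AA/+ replicate 1 the deviations of the 10 genes lay lowest at low GC content and highest at high GC content of the longest transcript. The 3 genes with the lowest GC content, Flrt2 (41.8%), Flrt3 (42.2%) and Tenm1 (42.5%), deviated by -0.59, -0.34 and -0.48 from the mean log2 value of the other 6 libraries. Adgrl1, with the highest GC content (59.1%), deviated by 0.27. Over 17543 genes tested the same library had a median deviation of -0.80 in the tenth of genes with the lowest GC content and 0.24 in the tenth with the highest. In the other 6 libraries these medians lay between 0.0884 and 0.235 and between -0.116 and 0.0189. After correction for GC content and length the log2 fold change was -0.38 for Tenm1, -0.80 for Tenm3, -0.22 for Adgrl3 and -0.04 for Flrt2. The part of GC content in these values was otherwise not tested.

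**Figure D4:**
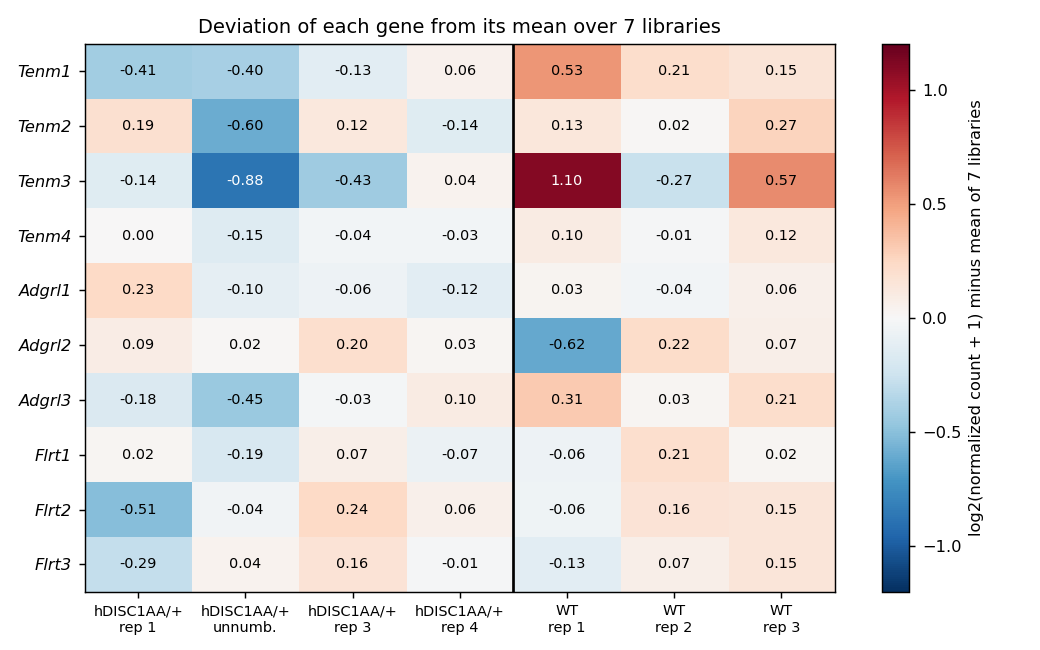
Deviation of each gene's log2(normalized count + 1) from its mean over 7 libraries, hDISC1AA/+ left of the line and WT right of it; red is above and blue below the mean. The largest deviations are those of Tenm3, 1.10 in WT replicate 1 and -0.88 in the unnumbered hDISC1AA/+ library.

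In the fit over all 17670 genes tested (limma on log2(normalized count + 1), Benjamini-Hochberg adjustment) 0 of the 10 genes passed an adjusted p of 0.05, as did 0.0% of all genes; the smallest adjusted p was 0.974. Tenm1, Tenm3 and Adgrl3, 3 of the 10, had an unadjusted p under 0.05 and were lower in hDISC1AA/+, against 1.3% of all genes tested in that direction and 2.44% (431 genes) in both. With edgeR and DESeq2, fitted to the reads recovered from the values, the numbers called were 0 of 17540 and 0 of 28381, and 452 and 604 genes had an unadjusted p under 0.05. The log2 fold change was below 0 for 9 of the 10 genes, against 52.2% of all genes tested, with a median of -0.14 for the set and -0.01 for all genes. The groups did not overlap, with hDISC1AA/+ lower, for 1 of the 10 genes (Tenm1), against 2.84% of all genes tested in that direction and 5.04% in either. The set was drawn with this contrast known, and nothing is read from these counts. By family, 4 of 4 teneurins, 2 of 3 latrophilins and 3 of 3 FLRT genes had a log2 fold change below 0, with medians of -0.38, -0.03 and -0.10.

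**Figure D5:**
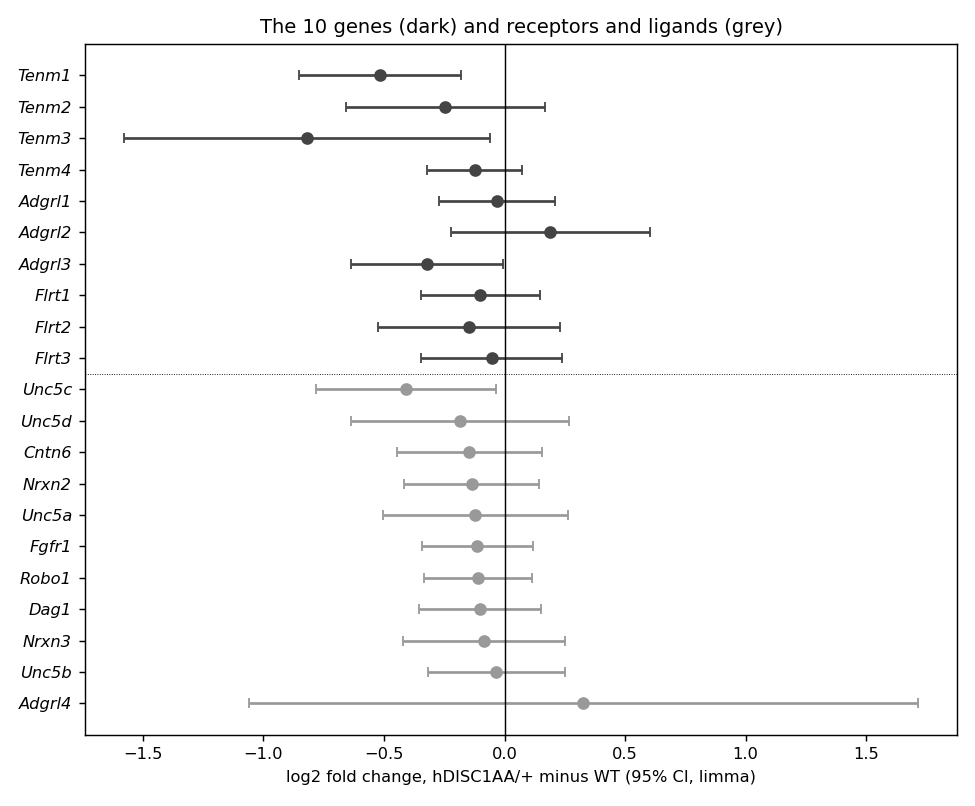
Log2 fold change (hDISC1AA/+ minus WT) with the 95% CI of limma for the 10 genes (dark) and the receptors and ligands named in the text that act with them (grey). The intervals of Tenm1, Tenm3, Adgrl3 and Unc5c lie below 0 before adjustment for the number of genes tested, and none of the genes shown passed after it.

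The receptors and ligands that act with these proteins included no gene that passed: 0 of 12 were called in either direction, and 11 of 12 had a log2 fold change below 0 (median -0.12). Over all genes tested 0.0% were called and 52.2% were below 0 (median -0.01), the shares to set beside each list below as well. These lists were chosen with earlier results of these data known, and nothing is read from their counts. Unc5c, a netrin receptor that repels axons, had 1196 ± 252 normalized counts in hDISC1AA/+ and 1562 ± 101 in WT (SD; log2 fold change -0.41, 95% CI -0.78 to -0.03). Its groups did not overlap. Unc5d, the receptor for Flrt2 in migrating neurons, had 1863 ± 469 normalized counts in hDISC1AA/+ and 2067 ± 175 in WT (log2 fold change -0.18). Its values were 1233, 1825, 2333 and 2063 in hDISC1AA/+ and 2007, 1929 and 2263 in WT. Unc5c and Unc5d (GC content 44.35% and 44.28%) were both lowest in hDISC1AA/+ replicate 1. They deviated there by -0.66 and -0.74 from the mean log2 value of the other 6 libraries. The part of GC content in these values was not tested. Unc5b, a receptor for Flrt3, had 462 ± 39.4 in hDISC1AA/+ and 473 ± 46.8 in WT (-0.03), and Unc5a, of the same family, had a log2 fold change of -0.12. The presynaptic organizers Nrxn2 and Nrxn3 had log2 fold changes of -0.14 and -0.09.

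Fgfr1, a growth factor receptor that binds FLRTs, had a log2 fold change of -0.11, Robo1, the Slit receptor that forms a complex with Flrt3, -0.11, and Dag1, which encodes dystroglycan, -0.10. Cntn6, a contactin that binds latrophilin 1, had -0.15, and Adgrl4 had 0.33 with a 95% CI from -1.06 to 1.71.

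Of 12 intracellular partners 0 passed and 11 had a log2 fold change below 0 (median -0.13), against 52.2% of all genes tested. Among those with the smallest unadjusted p were the postsynaptic scaffold gene Shank2 (-0.22), whose family binds the tail of latrophilins, and Plcb1, a phospholipase downstream of Gq (-0.21). The hDISC1AA/+ and WT values of Shank2 did not overlap. Of 17 other adhesion G protein-coupled receptors 0 passed, with 9 below 0 and 8 above (median -0.00146). The 3 with the smallest unadjusted p were Adgra2 (log2 fold change 0.45), Adgre5 (0.30) and Adgrf5 (0.52). Adgra2 and Adgrf5 are genes of blood vessels, and the 95% CI of each of the 3 included 0. Each of the 3 was lowest in WT replicate 1, the library lowest in endothelial markers. There they deviated by -1.18, -0.70 and -1.59 from the mean log2 value of the other 6 libraries. The part of that library in these fold changes was not tested. Of 26 other adhesion genes with leucine-rich repeats 0 passed and 16 were below 0 (median -0.07). By unadjusted p, not by size, the first 3 of that list were Lrrtm2 (log2 fold change -0.47), Lingo2 (-0.27) and Elfn2 (-0.20). Their GC contents were 38.4%, 38.8% and 58.2%. In hDISC1AA/+ replicate 1, where genes of low GC content were low, they deviated by -0.93, -0.41 and 0.12. The part of GC content in their fold changes was not tested. In all of these lists the smallest adjusted p of limma was 0.974.

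Genes whose levels ran most like each of the 10 over the 7 libraries were ranked by the root mean square difference of their centred log2 values, among 12306 protein-coding genes with a mean of at least 100 normalized counts. The libraries that stand apart weigh in these ranks, and 7 points are few. Closest to Tenm1 were Zfp804a (0.0633), a zinc finger gene, the exchanger gene Slc24a2 (0.0678) and the synaptic scaffold gene Dlg2 (0.0791), where the median gene lay at 0.339. Closest to Tenm3 was Dok6, an adaptor of receptor tyrosine kinases (0.0743), followed at a distance by Hipk2 (0.192) and Adamts4 (0.194), against a median of 0.610. Dok6 had 695, 465, 641 and 795 normalized counts in hDISC1AA/+ and 1633, 694 and 1150 in WT, with the libraries in the same order as for Tenm3. Tenm2 ran closest to Il6ra (0.0823), Pcdhac2 (0.0829) and Lrrc8b (0.0973), and Tenm4 to Extl3 (0.0252), Gnao1 (0.0281) and Matn2 (0.0307).

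Among latrophilins, Adgrl1 ran closest to Fam219a (0.0285), Pacsin1 (0.0286) and Smap2 (0.0296). Adgrl2 ran closest to Sgpp2 (0.0590), Plekha6 (0.0593) and Ace (0.0688), all of which were lowest in WT replicate 1, and Adgrl3 to Foxn3 (0.0390), Nr2c2 (0.0521) and the potassium channel gene Kcnma1 (0.0563). Flrt1 ran closest to the calcium pump gene Atp2a2 (0.0279), Mtmr4 (0.0292) and Prr14l (0.0294), Flrt2 to Gpr137c (0.0272), Zfp874b (0.0366) and Slc39a10 (0.0517), and Flrt3 to Cux1 (0.0331), Ss18 (0.0411) and Jarid2 (0.0452). Within the set the closest pairs were Tenm4 with Adgrl1 (0.104) and Flrt2 with Flrt3 (0.106), and the farthest was Tenm3 with Adgrl2 (0.819).

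Sequence shared with other genes, which can blur counting, was then searched for. No stretch of 50 bases of their annotated transcripts occurred in a transcript of another member, on either strand. With transcripts of other genes, Flrt2, Flrt3 and Tenm2 shared no such stretch, and the others shared from 0.172% of their stretches for Flrt1 to 9.97% for Adgrl1. Most of the shared stretches of Adgrl1 lie in Gm10644, a gene on the other strand with at most 24.9 normalized counts. Exons of Adgrl1 and Tenm4 overlap those of a gene on the other strand by 1107 and 988 bases. As for Tenm1 and Adgrl3, how reads in these stretches were counted is not known.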

How the data were processed

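The authors deposited 1 table with a value per gene and library. Its unit is a signal, not raw reads: every value above 0 was a whole multiple of 1 step per library within a tolerance of 0.01 reads, for 100% of values in all 7 columns, so the authors had divided gene counts by 1 size factor per library. The submitters' processing notes list mm10 and, without role or order, DESeq2 1.26.0, HTSeq 0.6.1, HISAT2 2.1.0 and Trimmomatic 0.39. Strand setting and annotation: not given in the sources used here. Columns were mapped to samples by title; the unnumbered hDISC1AA/+ library could be mapped to its genotype alone.

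From the deposited values, log2(normalized count + 1) was fitted with limma 3.58.1 (trend and robust variances, R 4.3.3) for 17670 genes with at least 10 normalized counts in at least 3 libraries, hDISC1AA/+ against WT, two-sided, and p-values were adjusted over these genes by Benjamini-Hochberg (threshold 0.05). The fit was tested on simulated data. Symbols, exon lengths and GC content came from GENCODE M21 (GRCm38), which held 42545 of 43626 identifiers; 3 genes on broken lines were left out. Promoters came from RefSeq. Alternatives were edgeR 4.0.16 and DESeq2 1.42.0 on the recovered reads, other scalings, pseudocount and filter, array weights, a GC and length correction, and leaving out libraries. The genes named are the 10 members, all receptors and ligands that act with them, the 3 genes of each other list with the smallest unadjusted p, the 3 nearest patterns of each member and genes overlapping a member; some genes this rule names are not reported here. The members and lists were chosen with earlier results of these data known.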

Additional observations from a re-analysis of the deposited data

Results flagged for a closer look

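In 2 of 37 sets of 4 hDISC1AA/+ values examined, 1 library stood far from the other 3, and chance alone flags about 1 in 20 such sets. For the normalized count of Adgrl1 the gap of hDISC1AA/+ replicate 1 (24312) to the next of the 4 was 0.836 of their range, above the 95% critical value of Dixon, with the other 3 at 18958 to 19834. For the share of Flrt1 in the FLRT sum per kb the gap was 0.883 of the range, hDISC1AA/+ replicate 1 being at 29.5% while the rest of the group had 21.2% to 22.2%.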

How the results depend on the processing

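In all 16 alternatives 0 genes passed an adjusted p of 0.05, and 7 to 10 of the 10 genes had a log2 fold change below 0. The sign held throughout for Tenm1 (-0.61 to -0.34), Tenm2 (-0.37 to -0.08), Tenm3 (-1.19 to -0.50), Tenm4 (-0.17 to -0.09), Adgrl3 (-0.40 to -0.22) and Flrt1 (-0.18 to -0.03). Leaving out 1 library turned it for Adgrl1 (-0.11 without hDISC1AA/+ replicate 1 to 0.00586 without hDISC1AA/+ replicate 4), Adgrl2 (-0.06 without WT replicate 1 to 0.36 without WT replicate 2), Flrt2 (-0.25 without hDISC1AA/+ replicate 3 to 0.000426 without hDISC1AA/+ replicate 1) and Flrt3 (-0.13 without WT replicate 1 to 0.0348 without hDISC1AA/+ replicate 1, and 0.00389 without WT replicate 3). Without both hDISC1AA/+ replicate 1 and WT replicate 1 Adgrl2 had -0.0659, and with the GC and length correction Flrt3 had 0.0286; the cause was not tested. Lengths of the longest transcript moved the level per kb of Adgrl2 to 916, Flrt3 to 360, Tenm4 to 425, Adgrl3 to 516 and Tenm1 to 141, and the family share of Adgrl1 to 63.8%, Adgrl2 to 23.1%, Adgrl3 to 13.04%, Flrt3 to 30.9% and Tenm4 to 35.0%, since the length divided by differs. Genes at an unadjusted p under 0.05 numbered 431 with limma, 1823 with array weights, 909 with no filter on low values, 875 without WT replicate 2, 275 without WT replicate 1 and 218 without the unnumbered hDISC1AA/+ library. No paired analysis was possible because the replicate numbers follow accession order and pair no samples.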
